A study of Homo sapiens with 36 samples.

Results

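The genes described here are the 10 listed members of the NF-kB system, 5 that encode the DNA-binding subunits (RELA, RELB, REL, NFKB1 and NFKB2), 3 that encode the classical inhibitors of the I-kappa-B family (NFKBIA, NFKBIB and NFKBIE) and 2 that encode nuclear proteins of that family (NFKBIZ and BCL3). They were chosen by name, whatever their values, from 35490 genes. Their RNA was measured in MOLM-13 and MONO-MAC-6, established human acute myeloid leukaemia lines labelled wild type (WT) in genotype, after 72 h with DMSO, the vehicle, or with A9. A9 is a PROTAC, a compound that brings target proteins to a ubiquitin ligase for degradation, and it was given at 0.125 µM to MOLM-13 and at 0.25 µM to MONO-MAC-6. The design text of the series gives IKK2 and NR4A1 as its targets, whereas the title gives IKK1 and NR4A1. Each of the 4 groups, MOLM-13 with DMSO, MOLM-13 with A9, MONO-MAC-6 with DMSO and MONO-MAC-6 with A9, holds 9 libraries numbered by 2 digits, each 1, 2 or 3. Libraries that share the leading digit were averaged into 1 sample, so that each group has n = 3.

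NF-kB proteins bind DNA as dimers of the 5 subunits. In resting cells the I-kappa-B proteins hold most dimers in the cytoplasm. The IKK complex, whose catalytic parts are IKK1 (gene CHUK) and IKK2 (gene IKBKB), phosphorylates the inhibitors, which are then degraded, and the freed dimers enter the nucleus. NFKB1 and NFKB2 are made as long precursors, p105 and p100, that are cut to the DNA-binding forms p50 and p52 and that themselves hold other subunits back. Several of these genes are NF-kB targets, NFKBIA being the best known, so the system limits itself. In monocytes and in myeloid leukaemia the pathway drives inflammatory and survival genes.

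Because many of these genes are under NF-kB control, their promoters were read first. The RefSeq table (GRCh38.p14) gave 14 promoter windows for 8 of the 10 members (all but RELB and NFKBIE), each from 250 bases before to 50 bases after a start site. The consensus kB motif, searched by name on both strands, was found in 9 of the 14 windows (64.3%), against 11.3% of all 35116 windows of that length. Its stricter form GGGANNTTCC, whose matches are all consensus matches too, was found in 6 of the 14 windows and in 1.61% of all windows. The 2 RELA windows held no match. A match is a run of letters and not a measured binding site. Windows of RELA, REL, NFKB1 and NFKBIZ are shown because these 4 genes varied together among samples, as described below, NFKBIZ with both of its start sites; that of NFKBIA is shown as the best-known target. Letters in capitals are matches to the consensus kB motif, and each window is written 5′ to 3′ on the strand of the gene.
RELA (chr11:65662867-65663166, minus strand): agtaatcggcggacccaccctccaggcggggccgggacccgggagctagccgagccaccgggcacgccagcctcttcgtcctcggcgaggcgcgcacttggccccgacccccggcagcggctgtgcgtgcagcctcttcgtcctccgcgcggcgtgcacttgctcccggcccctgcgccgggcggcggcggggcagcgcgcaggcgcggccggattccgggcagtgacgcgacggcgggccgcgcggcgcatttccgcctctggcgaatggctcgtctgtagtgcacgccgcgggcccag
REL (chr2:60881324-60881623, plus strand): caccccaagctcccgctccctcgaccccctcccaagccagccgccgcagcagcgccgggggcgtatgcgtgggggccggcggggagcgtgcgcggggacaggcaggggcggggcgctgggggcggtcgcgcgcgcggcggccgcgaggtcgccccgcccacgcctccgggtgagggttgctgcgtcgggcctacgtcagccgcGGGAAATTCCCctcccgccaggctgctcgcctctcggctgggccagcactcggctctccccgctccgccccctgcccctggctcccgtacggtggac
NFKB1 (chr4:102501109-102501408, plus strand): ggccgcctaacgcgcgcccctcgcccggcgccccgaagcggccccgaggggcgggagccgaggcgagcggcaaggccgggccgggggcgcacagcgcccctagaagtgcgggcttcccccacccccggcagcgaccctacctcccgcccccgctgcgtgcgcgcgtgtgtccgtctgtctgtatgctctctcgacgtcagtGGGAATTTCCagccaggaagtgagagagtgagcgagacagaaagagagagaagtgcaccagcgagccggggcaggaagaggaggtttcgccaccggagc
NFKBIA (chr14:35404700-35404999, minus strand): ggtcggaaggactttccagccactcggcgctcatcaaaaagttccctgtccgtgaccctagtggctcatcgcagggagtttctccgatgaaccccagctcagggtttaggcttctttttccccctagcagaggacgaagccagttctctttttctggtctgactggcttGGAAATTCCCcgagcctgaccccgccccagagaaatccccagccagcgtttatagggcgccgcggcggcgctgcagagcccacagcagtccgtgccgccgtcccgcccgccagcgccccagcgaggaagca
NFKBIZ, upstream start (chr3:101827740-101828039, plus strand): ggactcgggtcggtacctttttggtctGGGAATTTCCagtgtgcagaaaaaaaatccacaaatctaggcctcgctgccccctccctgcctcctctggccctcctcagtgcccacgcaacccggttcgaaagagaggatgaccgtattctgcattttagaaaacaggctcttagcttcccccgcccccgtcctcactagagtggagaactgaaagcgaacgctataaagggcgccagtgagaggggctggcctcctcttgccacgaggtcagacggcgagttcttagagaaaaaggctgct
NFKBIZ, downstream start (chr3:101849264-101849563, plus strand): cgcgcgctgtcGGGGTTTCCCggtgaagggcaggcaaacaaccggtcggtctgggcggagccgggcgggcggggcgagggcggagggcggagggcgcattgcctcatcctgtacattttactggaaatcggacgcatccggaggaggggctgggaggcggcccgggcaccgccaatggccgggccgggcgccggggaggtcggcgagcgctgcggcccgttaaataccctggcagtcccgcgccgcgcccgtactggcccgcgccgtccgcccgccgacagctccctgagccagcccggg

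Counted from the start site as 0, the first base of the match lay at -49 in NFKB1 and at -81 in NFKBIA. REL held 2 overlapping matches, at -47 and -46, which share all but 1 base. The matches of NFKBIZ lay farther out, at -223 before the upstream start and at -239 before the downstream start, and only the upstream one had the stricter form. The second window of NFKB1 held 0 matches. NFKB2 had matches in 2 of its 3 windows, NFKBIB in 1 of 2 and BCL3 in its 1 window.

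The values are TPM, transcript abundances that are corrected for transcript length and scaled to 1000000 in each library. TPM hold no counts, so neither the depth of a library nor a counting error can be stated; between 86918 and 105082 transcripts were listed above 0 per library. Of 12 myeloid and monocytic markers, 10 or 11 averaged 1 TPM or more in every group. Markers of T cells, B cells, erythroid cells, epithelium and fibroblasts summed to at most 16.4 TPM per list and sample, and of these lists only the epithelial one, through KRT8 and KRT18, had 2 markers at 1 TPM or more in all 4 groups. There were 2 samples that stood apart in their groups over many genes. MONO-MAC-6 DMSO sample 1 had a median of 74.5% of the level of samples 2 and 3 over 12852 genes, and MOLM-13 A9 sample 3 a median of 83.1% of the level of samples 1 and 2 over 11597 genes. Values of RELA, REL, NFKB1 and NFKBIZ, the members lowest in these samples, are given with and without them.

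**Figure D1:**
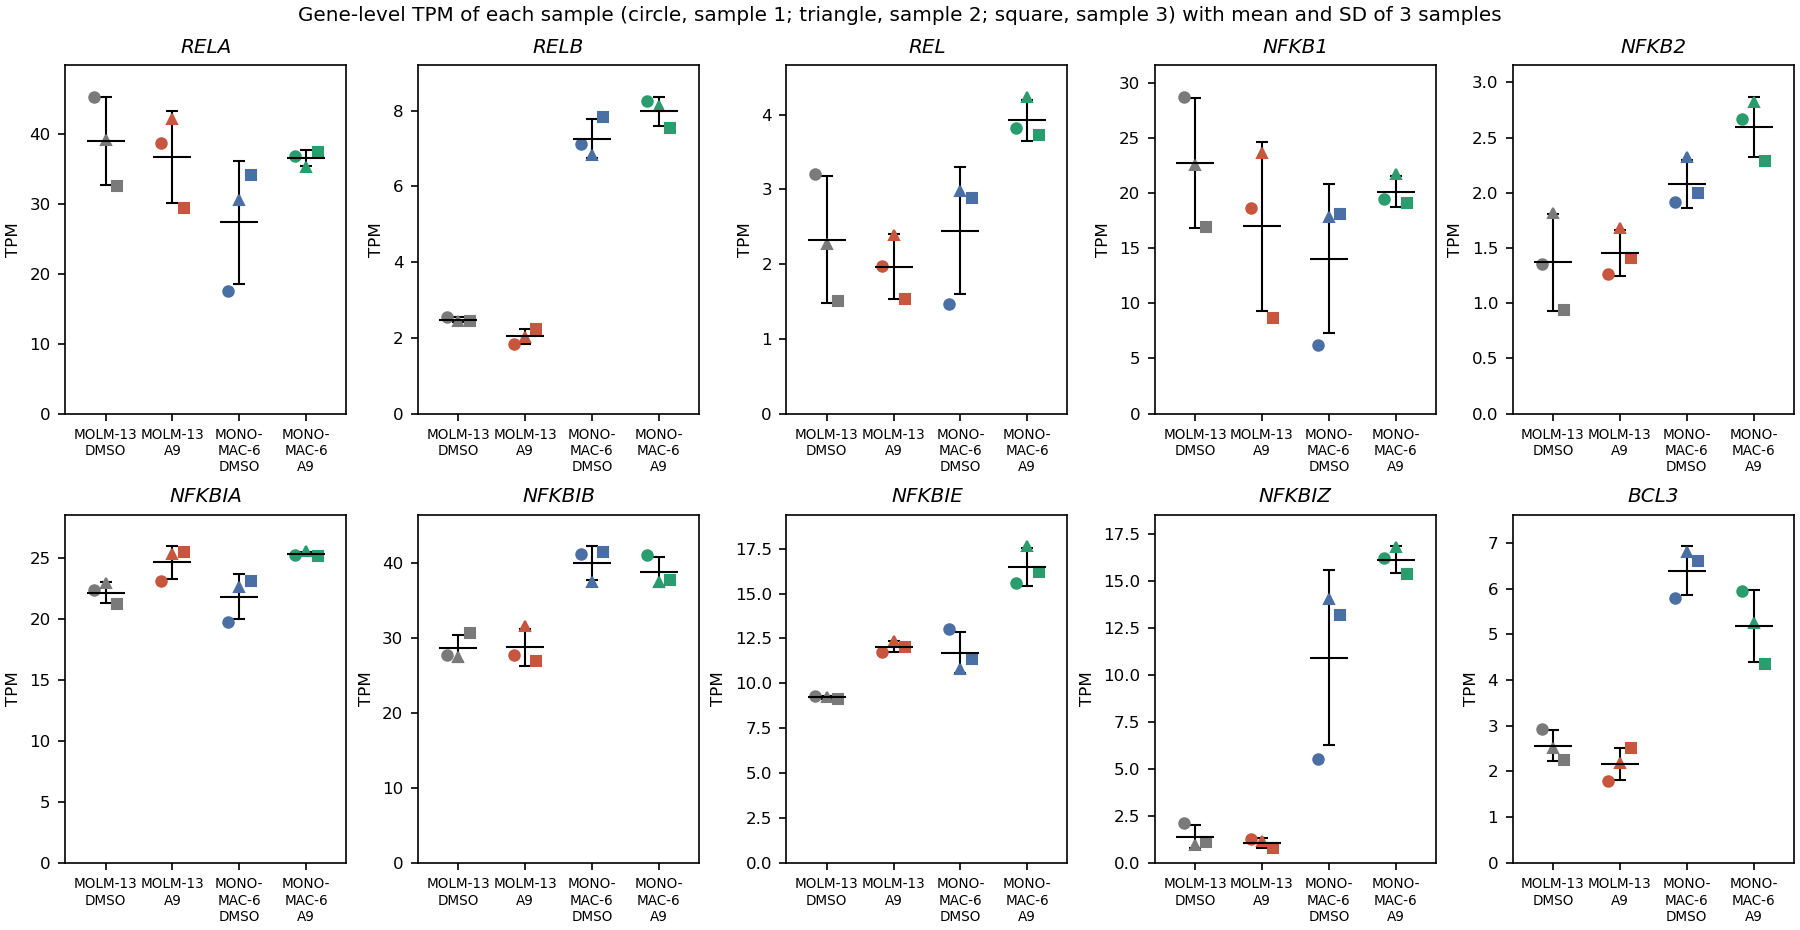
TPM of the 10 genes (y axis, from 0) in the 4 groups (x axis); circles, triangles and squares are samples 1, 2 and 3, and the horizontal line and bar are the mean and SD of 3 samples. NFKBIE is higher with A9 in both lines with no overlap, NFKBIZ, RELB and BCL3 are higher in MONO-MAC-6, and DMSO sample 1 of MONO-MAC-6 lies far below its group for RELA, REL, NFKB1 and NFKBIZ.

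All 10 genes averaged 1 TPM or more in each of the 4 groups, the minimum set for a test, so all were tested. With A9, 0 of the 10 had an adjusted p under 0.05 in MOLM-13, where 0.121% of 11602 genes did, and 0 of the 10 in MONO-MAC-6, where 3.36% of 12876 genes did (limma on log2(TPM + 1), Benjamini-Hochberg adjustment over all genes tested). At an unadjusted p under 0.05 there was 1 member in MOLM-13, NFKBIE, and there were 2 in MONO-MAC-6, NFKBIE and REL, against 7.89% and 20.4% of all genes. The members' log2 fold changes ran from -0.47 to 0.35 in MOLM-13, with a median of -0.12 against -0.046 over all genes; without A9 sample 3 they ran from -0.25 to 0.35, with medians of 0.0062 and 0.031. In MONO-MAC-6 they ran from -0.26 to 0.62, with a median of 0.34 against 0.16 over all genes; without DMSO sample 1 they ran from -0.32 to 0.53, with medians of 0.16 and 0.027. Dividing the samples by a median-ratio factor moved the median of all genes in MONO-MAC-6 from 0.16 to 0.0070; changes in that line are best read against that shift. As the samples are bulk RNA, fewer cells of a type and less RNA per cell cannot be told apart.

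Among the DNA-binding subunits RELA, or p65, which carries a transactivation domain and pairs most often with p50, was the most abundant (ENSG00000173039, chromosome 11, 65653596 to 65663094, minus strand, GRCh38). RELA had 45.3, 39.2 and 32.6 TPM in the DMSO samples of MOLM-13 and 38.7, 42.2 and 29.4 TPM in the A9 samples. These overlapped, and the log2 fold change was -0.087 (SE 0.17, adjusted p = 0.912), or 0.062 without A9 sample 3. MONO-MAC-6 had 17.5, 30.5 and 34.1 TPM with DMSO and 37.0, 35.3 and 37.5 TPM with A9. Every A9 sample was above every DMSO sample, yet most of the difference lay in DMSO sample 1: the log2 fold change of 0.46 (SE 0.24, adjusted p = 0.326) became 0.18 (SE 0.064, adjusted p = 0.0836) without it.

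NFKB1, the gene of p105 and p50, was the other abundant subunit (ENSG00000109320, chromosome 4, 102501329 to 102617302, plus strand). In MOLM-13 the DMSO samples had 28.7, 22.6 and 16.9 TPM and the A9 samples 18.7, 23.7 and 8.64 TPM. The groups overlapped, and A9 sample 3 was the lowest of the 6. The log2 fold change of -0.47 (SE 0.37, adjusted p = 0.867) was -0.077 (SE 0.23) without that sample. It was -0.75 without A9 sample 2 and -0.66 without DMSO sample 3. With a replicate block the value of -0.47 had an SE of 0.18 (adjusted p = 0.310). NFKB1 in MONO-MAC-6 had 6.23, 17.8 and 18.1 TPM with DMSO and 19.5, 21.7 and 19.1 TPM with A9. The A9 samples were all higher, but the log2 fold change was 0.62 (SE 0.38, adjusted p = 0.381) with all samples and 0.15 (SE 0.072, adjusted p = 0.157) without DMSO sample 1.

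REL, or c-Rel, a subunit with a transactivation domain that is best known from blood cells, was far less abundant (ENSG00000162924, chromosome 2, 60881521 to 60931610, plus strand). Its DMSO samples in MOLM-13 had 3.21, 2.26 and 1.51 TPM and its A9 samples 1.98, 2.39 and 1.53 TPM, which overlapped, at a log2 fold change of -0.14 (SE 0.22, adjusted p = 0.893) with all samples and -0.034 without A9 sample 3. For MONO-MAC-6 the values were 1.47, 2.98 and 2.89 TPM with DMSO against 3.82, 4.24 and 3.72 TPM with A9, with no overlap. REL did not pass over all 6 samples there (log2 fold change 0.55, SE 0.21, adjusted p = 0.216), and without DMSO sample 1 it did, at a smaller log2 fold change of 0.32 (SE 0.096, adjusted p = 0.0415).

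RELB and NFKB2 encode the dimer of the alternative pathway, in which IKK1 triggers the cutting of p100 to p52. RELB (ENSG00000104856, chromosome 19, 45001430 to 45038198, plus strand) had 2.56, 2.44 and 2.46 TPM with DMSO and 1.85, 2.02 and 2.24 TPM with A9 in MOLM-13. Here the A9 samples were all lower, and the log2 fold change of -0.20 (SE 0.11) did not pass (adjusted p = 0.767). MONO-MAC-6 had 7.11, 6.83 and 7.83 TPM of RELB with DMSO and 8.27, 8.13 and 7.55 TPM with A9, which overlapped; the log2 fold change of 0.12 (SE 0.12, adjusted p = 0.528) turned to -0.037 under median-ratio scaling.

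NFKB2 (ENSG00000077150, chromosome 10, 102394110 to 102402529, plus strand) was the lowest or second lowest of the 10 in every group. The DMSO samples of MOLM-13 had 1.36, 1.82 and 0.935 TPM and the A9 samples 1.27, 1.68 and 1.41 TPM. In MONO-MAC-6 these were 1.91, 2.33 and 2.0 TPM against 2.67, 2.82 and 2.29 TPM. The groups overlapped in both lines, and the adjusted p was 0.934 and 0.340. At such levels libraries of 1 sample already differed, by an SD of 0.33 and 0.31 on the log2(TPM + 1) scale in the 2 lines. The samples of a group differed less, but each is a mean over its libraries, which narrows their spread. Only transcripts that matched GENCODE 29 were summed, 78.5% of those listed, so the level of NFKB2 or of any other member may be too low.

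NFKBIE, the gene of I-kappa-B epsilon, which retains RELA and REL dimers in the cytoplasm, came closest to a change in both lines (ENSG00000146232, chromosome 6, 44258166 to 44265788, minus strand). In MOLM-13 it had 9.30, 9.24 and 9.11 TPM with DMSO and 11.7, 12.4 and 12.02 TPM with A9. All A9 samples were higher, and the means of 9.21 ± 0.0987 and 12.03 ± 0.316 TPM (SD, n = 3) gave a log2 fold change of 0.35 (SE 0.090) with an unadjusted p of 0.00684 and an adjusted p of 0.289 from limma. MONO-MAC-6 had 12.998, 10.8 and 11.3 TPM with DMSO and 15.6, 17.6 and 16.2 TPM with A9. Again the groups did not overlap, and the means of 11.7 ± 1.15 and 16.5 ± 1.05 TPM (SD, n = 3) gave a log2 fold change of 0.46 (SE 0.12, adjusted p = 0.109). Here DMSO sample 1 was the highest of its group, not the lowest, and without it NFKBIE passed, at 0.53 (SE 0.075, adjusted p = 0.00194). Under median-ratio scaling the MONO-MAC-6 value was 0.29 (adjusted p = 0.365). The test of a difference between the lines gave 0.11 (SE 0.13, adjusted p = 0.586), and the sign of that difference turned to -0.11 under the same scaling.

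NFKBIA, the gene of I-kappa-B alpha, is the inhibitor that is resynthesised fastest once NF-kB is active (ENSG00000100906, chromosome 14, 35401511 to 35404749, minus strand). The DMSO samples of MOLM-13 had 22.3, 22.9 and 21.2 TPM and the A9 samples 23.1, 25.3 and 25.4 TPM. The A9 samples were all higher by a small margin, at a log2 fold change of 0.15 (SE 0.085, adjusted p = 0.781) and a 95% interval from -0.058 to 0.35. NFKBIA in MONO-MAC-6 had 19.7, 22.6 and 23.1 TPM against 25.2, 25.5 and 25.1 TPM. That too was a separation without a passed test (log2 fold change 0.21, SE 0.10, adjusted p = 0.305). Under median-ratio scaling the MONO-MAC-6 value was 0.037 (adjusted p = 0.812).

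NFKBIB encodes I-kappa-B beta, which is degraded more slowly, and it was the most abundant inhibitor (ENSG00000104825, chromosome 19, 38899700 to 38908893, plus strand). Its samples in MOLM-13 had 27.8, 27.5 and 30.8 TPM with DMSO and 27.7, 31.6 and 27.0 TPM with A9, and those in MONO-MAC-6 41.2, 37.5 and 41.5 TPM against 41.2, 37.6 and 37.8 TPM. The groups overlapped in both lines. The intervals of the log2 fold change of NFKBIB included 0 and ran from -0.22 to 0.23 in MOLM-13 and from -0.26 to 0.18 in MONO-MAC-6. NFKBIB overlaps SIRT2 on the opposite strand. SIRT2 had means of 29.4 to 45.7 TPM over the 4 groups, and the labels used here do not say whether reads were assigned by strand.

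The nuclear proteins of the family act on chromatin-bound dimers. NFKBIZ encodes I-kappa-B zeta, a cofactor of p50 dimers that is needed for secondary response genes (ENSG00000144802, chromosome 3, 101827991 to 101861022, plus strand). In MOLM-13 it was at the edge of the test, with 2.09, 0.954 and 1.101 TPM with DMSO and 1.24, 1.16 and 0.779 TPM with A9. MONO-MAC-6 had 5.55, 14.0 and 13.2 TPM with DMSO and 16.2, 16.8 and 15.4 TPM with A9. The A9 samples were all above the DMSO samples in MONO-MAC-6 and overlapped them in MOLM-13, where the log2 fold change was -0.19 (SE 0.21, adjusted p = 0.870), or -0.085 without A9 sample 3. The MONO-MAC-6 log2 fold change was 0.62 (SE 0.32, adjusted p = 0.324) with DMSO sample 1 and 0.23 (SE 0.070, adjusted p = 0.0445) without it.

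BCL3, which binds p50 and p52 dimers in the nucleus, had lower mean levels with A9 in both lines (ENSG00000069399, chromosome 19, 44747705 to 44760044, plus strand). It had 2.92, 2.52 and 2.25 TPM with DMSO and 1.80, 2.19 and 2.51 TPM with A9 in MOLM-13. For MONO-MAC-6 the DMSO samples had 5.79, 6.79 and 6.60 TPM and the A9 samples 5.94, 5.24 and 4.36 TPM. The groups overlapped in both lines, at log2 fold changes of -0.17 (SE 0.14, adjusted p = 0.867) and -0.26 (SE 0.14, adjusted p = 0.338).

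**Figure D2:**
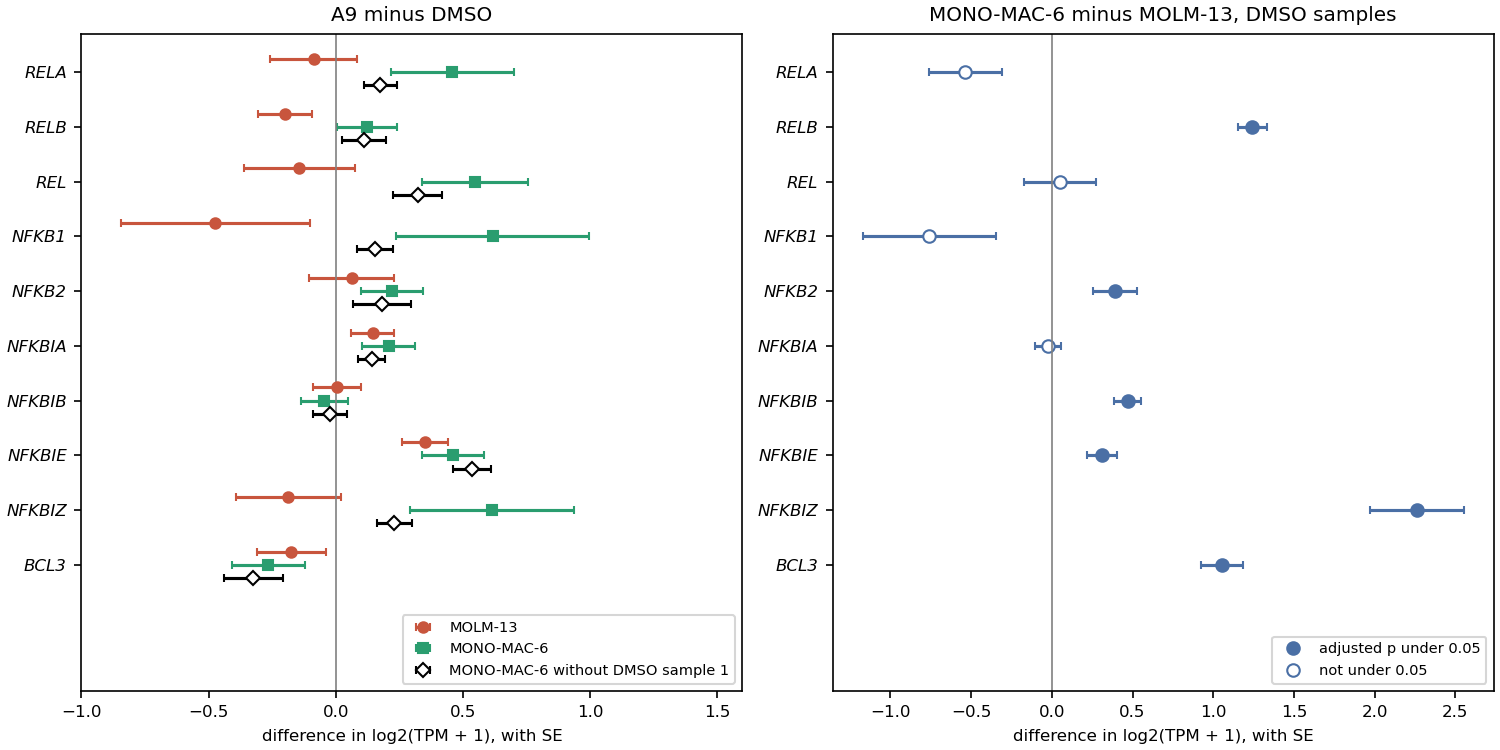
Left, difference of A9 and DMSO in log2(TPM + 1) with its SE for the 10 genes in MOLM-13, in MONO-MAC-6 and in MONO-MAC-6 without DMSO sample 1; right, difference of the DMSO samples of the 2 lines, filled where the adjusted p is under 0.05. NFKBIE lies to the right of 0 in all 3 sets on the left, and RELA, REL, NFKB1 and NFKBIZ move towards 0 when DMSO sample 1 is left out.

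Counted by separation alone, 3 of 10 members had no overlap of A9 and DMSO samples in MOLM-13, where 15% of all genes tested had none, and 2 of them, NFKBIE and NFKBIA, were higher with A9, as were 8.58% of all genes. In MONO-MAC-6 6 of 10 did not overlap, against 37.9% of all genes. All 6, namely RELA, REL, NFKB1, NFKBIA, NFKBIE and NFKBIZ, were higher with A9, against 27.2% of all genes. Leaving out MONO-MAC-6 DMSO sample 1 raised the number of members past the threshold from 0 to 3, NFKBIE, REL and NFKBIZ, all higher with A9, while the share of all genes past it rose to 24.8%. That share is near the members' own, so the 3 calls do not set the members apart. Without that sample the log2 fold changes of NFKBIE and BCL3 (-0.26 to -0.32) lay farther from 0, and those of RELA, REL, NFKB1 and NFKBIZ lay closer to it.

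The effect of A9 was then compared between the lines in 1 model over all 12 samples. The difference had an adjusted p under 0.05 for 0 of the 10 members (limma), against 2.99% of 13417 genes. At an unadjusted p under 0.05 there was 1 member, RELB, against 17.7% of all genes. RELB had log2 fold changes of -0.20 for MOLM-13 and 0.12 for MONO-MAC-6, a difference of 0.32 (SE 0.13, adjusted p = 0.237). The widest difference was that of NFKB1, 1.09 (SE 0.58, adjusted p = 0.345), with opposite signs of the mean in the lines. REL differed by 0.69 (SE 0.31, adjusted p = 0.287) and NFKBIZ by 0.80 (SE 0.41, adjusted p = 0.331), and RELA by 0.54 (SE 0.32, adjusted p = 0.369). With DMSO sample 1 of MONO-MAC-6 left out these 4 differences were 0.63 for NFKB1, 0.47 for REL, 0.42 for NFKBIZ and 0.26 for RELA, and without MOLM-13 A9 sample 3 they were 0.69, 0.58, 0.70 and 0.40. The dose differed as well as the line, so the line and the dose cannot be told apart.

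More members passed the test between the lines than between the treatments, and the same held for all genes. Between the DMSO samples, 6 of the 10 members had an adjusted p under 0.05, against 58% of 13417 genes. That share is near the members' own, so the number of calls does not set the members apart. All 6 were higher in MONO-MAC-6, against 35.9% of all genes. The 6 were NFKBIZ, RELB, BCL3, NFKBIB, NFKB2 and NFKBIE. TPM were scaled within each library and the 2 lines stand in tables that were deposited separately, so these are differences in the share of each library's transcripts.

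NFKBIZ showed the widest gap. Its DMSO means were 1.38 ± 0.620 TPM for MOLM-13 and 10.9 ± 4.68 TPM for MONO-MAC-6 (SD, n = 3), a 7.90-fold ratio, and the log2 difference on the log2(TPM + 1) scale was 2.26 (SE 0.29, adjusted p = 5.88e-05). Even MONO-MAC-6 DMSO sample 1, at 5.55 TPM, was above every MOLM-13 sample. RELB was 2.92-fold higher, at 7.26 ± 0.515 against 2.48 ± 0.0634 TPM (SD, n = 3), with a log2 difference of 1.24 (SE 0.092, adjusted p = 6.08e-07). BCL3 was 2.49-fold higher, at 6.40 ± 0.533 against 2.57 ± 0.338 TPM (SD, n = 3), with a log2 difference of 1.05 (SE 0.13, adjusted p = 4.27e-05). These 3 passed under every alternative and with each sample left out.

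The other 3 differences were small. NFKBIB was 1.398-fold higher (log2 difference 0.47, SE 0.085, adjusted p = 0.000675), NFKB2 1.52-fold (0.39, SE 0.14, adjusted p = 0.0306) and NFKBIE 1.27-fold (0.31, SE 0.091, adjusted p = 0.0125). Under median-ratio scaling none of the 3 passed, with adjusted p of 0.0608, 0.0574 and 0.325, and RELA and NFKB1 passed instead, both lower in MONO-MAC-6. NFKB2 also lost its call without MOLM-13 DMSO sample 1 (adjusted p = 0.0640) and without MOLM-13 DMSO sample 3 (0.121). It was lost as well without MONO-MAC-6 DMSO sample 2 (0.0977) and without MONO-MAC-6 DMSO sample 3 (0.0539). Of the 8 alternatives that kept all samples, NFKBIB passed under 7, NFKBIE under 6 and NFKB2 under 3. RELA passed under 5 of the 8 and NFKB1 under 4, both lower in MONO-MAC-6. With protein-coding transcripts alone the log2 difference of NFKB2 was 0.11 (adjusted p = 0.514).

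RELA and NFKB1 had lower means in MONO-MAC-6, at 0.702 and 0.617 times the MOLM-13 DMSO mean. Neither passed in the main limma fit (adjusted p = 0.0637 and 0.141). Without MONO-MAC-6 DMSO sample 1 the log2 difference went from -0.54 to -0.25 for RELA and from -0.76 to -0.30 for NFKB1. REL (1.05 times) and NFKBIA (0.985 times) had nearly equal means. The interval of NFKBIA ran from -0.20 to 0.16 on the log2 scale, whereas that of REL ran from -0.44 to 0.54 and its difference had a sign that turned to -0.054 under median-ratio scaling; without MONO-MAC-6 DMSO sample 1 it was 0.27 instead of 0.049. The NFKBIZ difference was 2.65 without that sample.

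Within a line the order of the means was nearly the same with and without A9. In MOLM-13 RELA stood first and NFKBIB second, followed by NFKB1 and NFKBIA, which changed places with A9, and then NFKBIE. In MONO-MAC-6 NFKBIB stood first, then RELA, NFKBIA, NFKB1, NFKBIE and NFKBIZ. In MOLM-13 the sample ranges of RELA and NFKBIB did not overlap with DMSO, and those of NFKBIA and NFKB1 did. RELB, BCL3, REL, NFKB2 and NFKBIZ all lay under 3 TPM on average in MOLM-13 and overlapped in part. Among genes that averaged 1 TPM or more, RELA stood at percentile 75.3 and NFKBIZ at percentile 4.30 in MOLM-13 with DMSO, and in MONO-MAC-6 with DMSO they stood at 66.8 and 44.2.

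How far samples of 1 group differed depended on the gene. In MONO-MAC-6 DMSO sample 1, NFKB1 had 34.7%, NFKBIZ 40.7%, REL 49.96% and RELA 54.1% of the mean of samples 2 and 3. The other 6 members stayed between 86.2% (NFKBIA) and 118% (NFKBIE). Of all genes tested there, 31.1% were under 60%, and the middle of the distribution, from its percentile 10 to its percentile 90, reached from 42.1% to 122%. The same 4 genes were low in MOLM-13 A9 sample 3, NFKB1 at 40.8%, NFKBIZ at 64.9%, REL at 70.0% and RELA at 72.8% of samples 1 and 2, while the other 6 lay between 91.1% (NFKBIB) and 126% (BCL3). Of all genes tested there, 12.9% were under 60%. Ranked among all genes by this measure, NFKB1 was at percentile 5.44 in MONO-MAC-6 DMSO sample 1 and at 3.28 in MOLM-13 A9 sample 3, NFKBIZ at 8.98 and 18.5, REL at 18.1 and 26.6 and RELA at 23.3 and 31.2. Values as low as those of REL and RELA were thus common among genes in both samples.

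**Figure D3:**
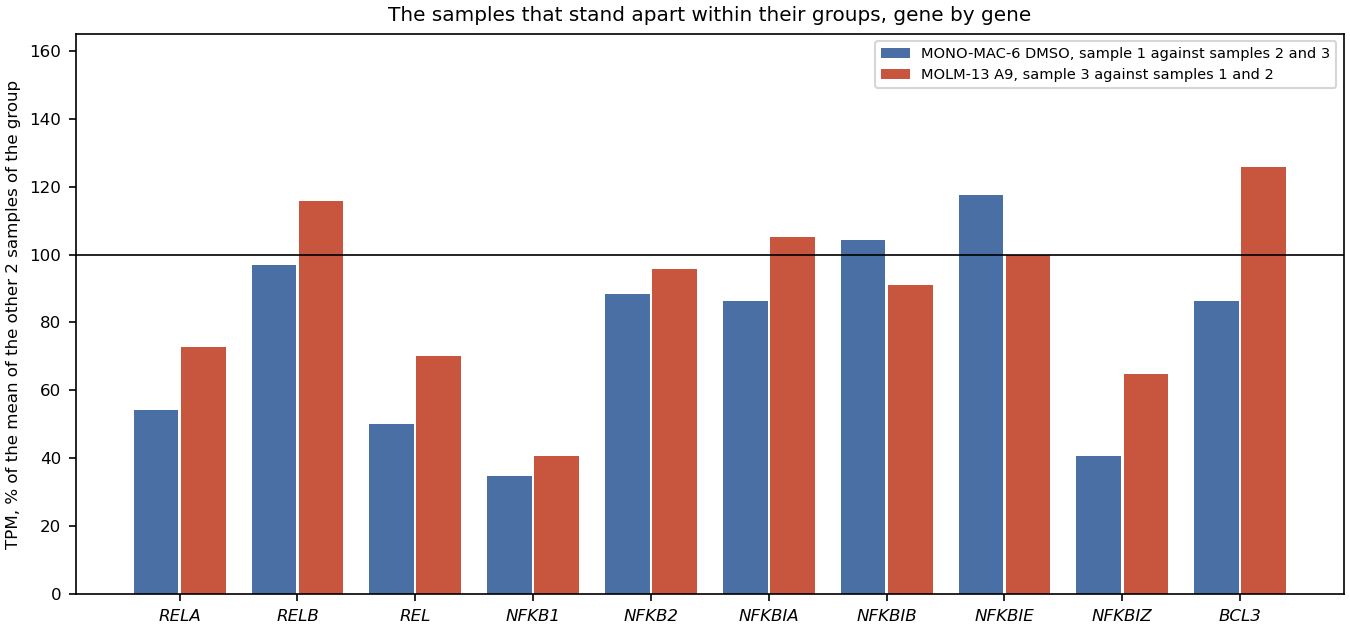
TPM of MONO-MAC-6 DMSO sample 1 and of MOLM-13 A9 sample 3 (bars, y axis from 0) as a percentage of the mean of the other 2 samples of the group, for the 10 genes; the line marks 100%. RELA, REL, NFKB1 and NFKBIZ fall short in both samples, between 34.7% and 72.8%, and the other 6 genes lie between 86.2% and 126%.

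The repeat libraries of a sample did not share this spread. For REL the SD on the log2(TPM + 1) scale was 0.041 among libraries of a sample and 0.30 among samples of a group in MOLM-13, 7.41 times as large. In MONO-MAC-6 the factor was 4.32 for REL, 5.02 for RELA, 4.59 for NFKB1 and 5.17 for NFKBIZ. For RELB, BCL3 and NFKB2 the spread among samples was below that among libraries in both lines, with factors from 0.387 to 0.680. Each sample is a mean over its libraries, so averaging alone gives it the smaller spread where samples do not differ.

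Over the 12 samples, after the mean of each line was subtracted, RELA, REL, NFKB1 and NFKBIZ followed each other, with Pearson r from 0.874 (NFKB1 and NFKBIZ) to 0.940 (RELA and REL). The pair next in order was NFKBIA and NFKBIE, at 0.709. These are descriptions over n = 12 samples that include the 2 samples standing apart, and each library is scaled to the same total. By the same measure, among 11060 genes, the most similar genes to RELA were PDE12 and FOXK1 (r = 0.995 and 0.994), to REL ZKSCAN1 and NFAT5 (0.989 and 0.989), to NFKB1 PDE7A and LARP4B (0.994 and 0.993) and to NFKBIZ AGAP5 and SLC16A7 (0.981 and 0.980). NFKBIE was most like TPRA1 and FTL (0.977 and 0.974) and NFKBIA most like ZC3H12D and VSIG10 (0.955 and 0.950). The other 4 had weaker partners, NFKB2 with WTAP and FAM19A2 (0.942 and 0.880), BCL3 with HIST1H2AM and METTL7A (0.928 and 0.870), RELB with ANXA11 and AC239859.2 (0.897 and 0.846) and NFKBIB with CDT1 and BRMS1 (0.874 and 0.866).

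Single transcripts were tested in the same way. Of 17 member transcripts that averaged 1 TPM or more in a MOLM-13 group 0 passed, against 0.00982% of 40728 transcripts, and of 22 in MONO-MAC-6 0 passed, against 0.406% of 48474 (limma); 2 and 3 had an unadjusted p under 0.05. Most RELA came from RELA-202 (2700 bases), which made 85.3% of the gene's TPM for MOLM-13 and 78.5% for MONO-MAC-6 with DMSO. NFKBIA came almost wholly from NFKBIA-201, at 95.8% and 95.1%. NFKBIE was listed as NFKBIE-201 and NFKBIE-204, but these have the same 2581 bases in GENCODE 29, so the split between them holds no information and only their sum was used. The tested transcripts not described further were RELA-201, RELA-206, RELA-209, RELB-201, RELB-202, REL-202, NFKB1-205, NFKB1-206, NFKB2-204, NFKBIB-205, NFKBIB-206, NFKBIZ-210 and BCL3-201.

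NFKB1 was a mixture of lengths. NFKB1-208, a model of 557 bases that starts 2046 bases downstream of NFKB1-201, made 44.1% of NFKB1 TPM for MOLM-13 and 54.9% for MONO-MAC-6 with DMSO. The long models NFKB1-201 (4085 bases), which reaches the end of the gene, and NFKB1-202 (3693 bases), which ends at 102616915, made up 21.9% and 15.2% in MOLM-13. In MONO-MAC-6 DMSO sample 1 NFKB1-201 had 0.998 TPM against 3.01 and 4.28 in samples 2 and 3, and NFKB1-202 had 0.132 TPM against 3.86 and 4.71. The short NFKB1-208 was lower as well, at 4.69 TPM against 10.2 and 8.27, and its share of the gene was 75.2% against 57.2% and 45.8%. MOLM-13 A9 sample 3 looked alike: NFKB1-201 had 1.23 TPM against 3.32 and 9.30 in samples 1 and 2, NFKB1-202 had 0.160 TPM against 2.33 and 4.37, and NFKB1-208 made 77.0% of the gene. In both samples the long NFKB1-201 and NFKB1-202 lay further below the other samples of the group than the short NFKB1-208. Mean transcript lengths of the members are given with their levels in MONO-MAC-6 DMSO sample 1, as percentages of samples 2 and 3. REL (3036 bases) was at 49.96%, NFKBIZ (2887 bases) at 40.7%, NFKBIE (2477 bases) at 118% and RELA (2452 bases) at 54.1%. NFKB2 (2230 bases) was at 88.4%, RELB (2104 bases) at 97.0% and NFKB1 (2098 bases), a mixture of lengths, at 34.7%. NFKBIB (1538 bases) was at 104%, NFKBIA (1536 bases) at 86.2% and BCL3 (1439 bases) at 86.4%. With the length trend removed NFKB1 had log2 fold changes of -0.43 (SE 0.29) in MOLM-13 and 0.48 (SE 0.28) in MONO-MAC-6. REL in MONO-MAC-6 then had 0.33 (SE 0.094) instead of 0.55. NFKBIZ had 0.41 (SE 0.18) there instead of 0.62 and RELA 0.29 (SE 0.13) instead of 0.46. NFKBIE, which was not low in MONO-MAC-6 DMSO sample 1, had 0.29 (SE 0.19) instead of 0.46. The part of length in the low values was not tested.

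NFKBIZ has a start site on each side of an interval of 21521 bases, and both lie in the promoter windows shown above. NFKBIZ-202 (3923 bases) starts at the downstream site and NFKBIZ-203 (3787 bases) at the upstream site, and the models share their last 3520 bases. In MONO-MAC-6 with A9 NFKBIZ-202 had 8.94, 9.03 and 8.18 TPM and NFKBIZ-203 1.99, 1.76 and 2.72 TPM. DMSO samples 2 and 3 had the same order, 9.11 and 7.10 TPM against 0.486 and 2.03 TPM. In DMSO sample 1 the order was turned, with 1.43 TPM of NFKBIZ-202 and 2.93 TPM of NFKBIZ-203. The model NFKBIZ-202 held 25.8% of the gene there and 53.2% to 64.9% in the other 5 samples. Part of the gene's TPM lay in further models, and the split between these models rests on the bases they do not share. A change of start site was not tested. In MOLM-13 no single NFKBIZ transcript reached 1 TPM.

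NFKBIB was divided between NFKBIB-201 (1159 bases, 53.1% of the gene for MOLM-13 and 51.6% for MONO-MAC-6 with DMSO), NFKBIB-204 (1929 bases) and NFKBIB-203 (2200 bases), the last annotated as a target of nonsense-mediated decay. NFKBIB-204 had 5.44 TPM in MONO-MAC-6 DMSO sample 1 against 10.1 and 10.7 TPM in samples 2 and 3, and NFKBIB-203 had 11.6 TPM against 6.69 and 7.48. The gene sum therefore stayed level in that sample, at 41.2 TPM, while its parts did not.

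**Figure D4:**
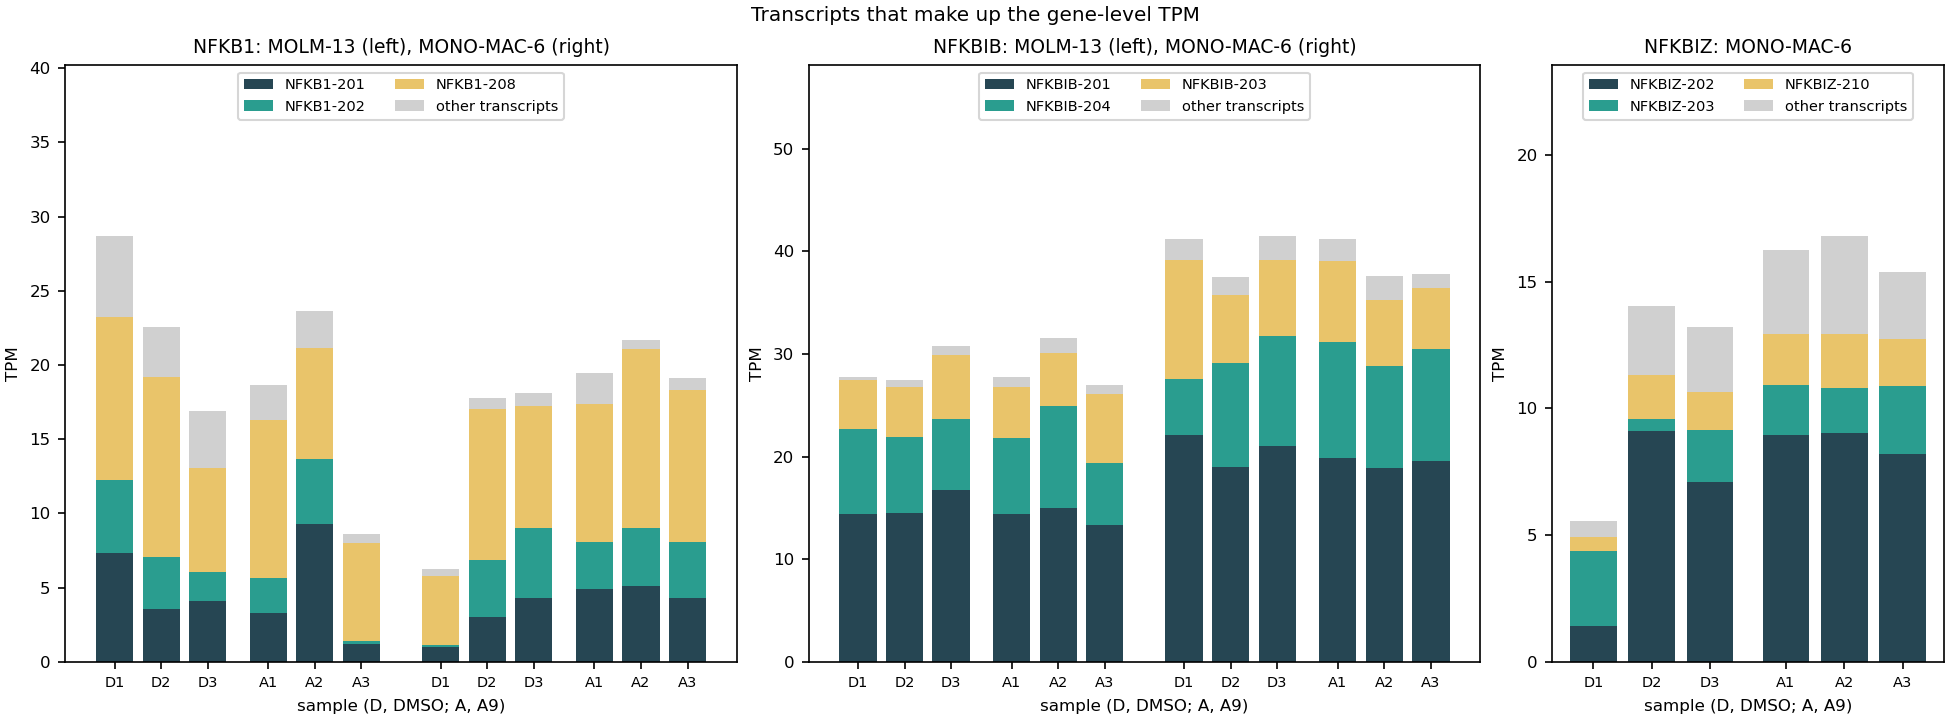
Stacked TPM (y axis, from 0) of single transcripts of NFKB1, NFKBIB and NFKBIZ in each sample (x axis), with the transcripts not named in grey; NFKBIZ is shown in MONO-MAC-6 alone. NFKB1-202 is at 0.160 TPM in MOLM-13 A9 sample 3 and at 0.132 TPM in MONO-MAC-6 DMSO sample 1, and the latter holds more NFKBIZ-203 than NFKBIZ-202.

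Summed over their genes, subunit and inhibitor transcripts had means of 53.2 to 80.6 TPM in the 4 groups. The 5 subunits summed to 67.9 ± 13.4 TPM with DMSO and 59.2 ± 14.6 TPM with A9 in MOLM-13, and to 53.2 ± 16.6 and 71.2 ± 1.01 TPM in MONO-MAC-6 (SD, n = 3). The 3 classical inhibitors summed to 60.02 ± 0.914 and 65.4 ± 3.48 TPM in MOLM-13 and to 73.6 ± 2.53 and 80.6 ± 1.47 TPM in MONO-MAC-6 (SD, n = 3). In 3 of the 4 groups the subunit sum varied more among samples than the inhibitor sum; in MONO-MAC-6 with A9 both varied little. Per TPM of subunits there were 0.909 ± 0.197 and 1.15 ± 0.294 TPM of inhibitors in MOLM-13, and 1.501 ± 0.571 and 1.13 ± 0.0176 in MONO-MAC-6 (SD, n = 3). The samples standing apart had the highest ratios, 2.16 in MONO-MAC-6 DMSO sample 1 against 1.17 in each of samples 2 and 3, and 1.49 in MOLM-13 A9 sample 3 against 1.001 and 0.962 in samples 1 and 2. With DMSO RELB made 3.74 ± 0.698% of the subunit sum for MOLM-13 and 14.7 ± 5.28% for MONO-MAC-6 (20.8% in sample 1, 11.3% and 12.1% in samples 2 and 3), while RELA made 57.7 ± 2.07% and 51.4 ± 1.06% (SD, n = 3). NFKBIE made 15.4 ± 0.393% of the inhibitor sum with DMSO and 18.4 ± 0.502% with A9 in MOLM-13, and 15.9 ± 1.47% and 20.4 ± 1.41% in MONO-MAC-6 (SD, n = 3).

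**Figure D5:**
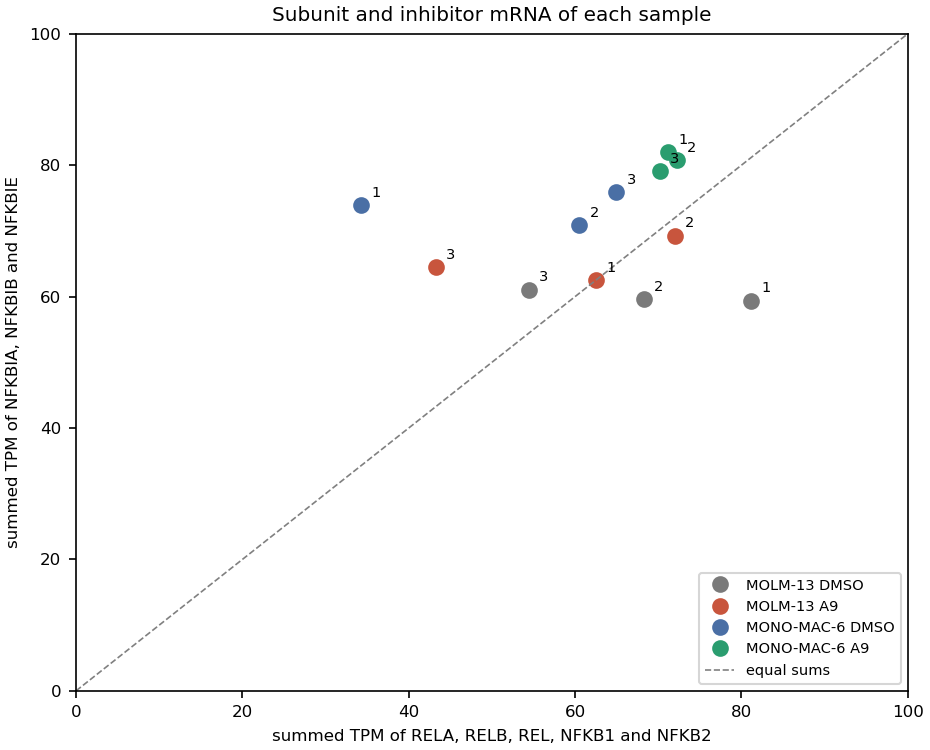
Summed TPM of the 3 classical inhibitors (y axis) against that of the 5 subunits (x axis) in each of the 12 samples, numbered within their group; the dashed line marks equal sums. The 3 MONO-MAC-6 A9 samples lie together near 71.2 TPM of subunits, and MONO-MAC-6 DMSO sample 1 and MOLM-13 A9 sample 3 lie far to the left at inhibitor sums like those of their groups.

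The rest of the pathway was taken from 7 lists of 142 genes, with 104 tested for MOLM-13 and 118 for MONO-MAC-6. With A9, 0 passed in MOLM-13 (limma; 9 had an unadjusted p under 0.05) and 5 passed in MONO-MAC-6, all higher; without MONO-MAC-6 DMSO sample 1 the count was 35, of which 27 were higher. These are 4.24% and 29.7% of the list genes, against 3.36% and 24.8% of all genes. Of 27 NF-kB target genes tested, 4 rose with A9 in MONO-MAC-6. Without DMSO sample 1, 16 passed, of which 14 were higher. The median log2 fold change was 0.33 with that sample and 0.23 without, against 0.16 and 0.027 over all genes. CXCL8, a neutrophil chemokine, went from 4.41 ± 0.131 to 36.8 ± 5.27 TPM (SD, n = 3; log2 fold change 2.79, SE 0.14, adjusted p = 0.000925). CXCL1, of the same family, went from 1.17 ± 0.335 to 16.2 ± 2.35 TPM (SD, n = 3; 2.99, SE 0.17, adjusted p = 0.00134), and CXCL2 rose by 0.98 (SE 0.14, adjusted p = 0.0187). The remaining target gene, TNFAIP2, lay outside the naming rule and is named after its value was seen (0.83, SE 0.14, adjusted p = 0.0297).

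Of 22 receptors and adaptors tested 1 rose with A9 in MONO-MAC-6, CD14, the co-receptor for lipopolysaccharide, from 3.14 ± 0.529 to 13.04 ± 0.552 TPM (SD, n = 3; log2 fold change 1.77, SE 0.14, adjusted p = 0.00256). The other 5 lists had no gene past the threshold there: 17 IKK complex and upstream kinase genes, 20 feedback inhibitors, 15 coactivators and modifiers of RELA, 12 ubiquitin ligase and chaperone genes and 5 further I-kappa-B-like genes, with medians of 0.25, 0.28, 0.21, 0.086 and 0.10 against 0.16 over all genes. Without DMSO sample 1 these 5 lists had 4, 5, 2, 2 and 0 genes past the threshold, where 24.8% of all genes passed, and medians of 0.098, 0.12, -0.016, -0.064 and -0.14 against 0.027 over all genes, so 3 medians changed sign. Of the receptors and adaptors 6 passed then, with a median of 0.095 instead of 0.22. The difference between the lines passed for CD14 and for 5 target genes, CXCL1, CXCL8, CXCL2, CD83 and TNFAIP2, all toward a higher effect in MONO-MAC-6, which is 5.08% of the 118 list genes against 2.99% of all genes. CXCL2 and TNFAIP2 are outside the naming rule for this comparison. CD14, CXCL1, CXCL8 and CXCL2 averaged under 1 TPM in both MOLM-13 groups, so they were not tested there and entered this comparison through MONO-MAC-6 alone. In MOLM-13 with DMSO CXCL8 had a mean of 0.238 TPM and CD14 one of 0.295 TPM. For CXCL1 the difference of 2.99 was the MONO-MAC-6 change itself. The differences of these genes therefore say little about A9 in MOLM-13. Without MOLM-13 A9 sample 3 the calls of CXCL2, CD83 and TNFAIP2 were lost (adjusted p = 0.0509, 0.0696 and 0.0737), and that of TNFAIP2 also without MONO-MAC-6 DMSO sample 1 (0.0579).

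With all samples, the IKK genes themselves did not pass with A9. IKBKB had 45.3 ± 9.11 and 38.3 ± 10.9 TPM in MOLM-13 and 27.3 ± 8.94 and 38.5 ± 1.29 TPM in MONO-MAC-6 with DMSO and A9 (SD, n = 3), with adjusted p of 0.870 and 0.279. Without DMSO sample 1 IKBKB passed in MONO-MAC-6, at a log2 fold change of 0.25 (SE 0.072, adjusted p = 0.0365) instead of 0.53. CHUK had 22.4 ± 2.61 and 21.6 ± 2.82 TPM and 23.6 ± 5.82 and 27.6 ± 1.43 TPM (SD, n = 3). IKBKG, the regulatory subunit NEMO, had 16.7 ± 0.623 and 19.7 ± 1.43 TPM and 10.2 ± 1.34 and 9.97 ± 0.630 TPM (SD, n = 3). Between the DMSO samples of the lines 69 of the 118 list genes passed, 45 higher and 24 lower in MONO-MAC-6; that is 58.5% of them, near the 58% of all genes. IKBKG (log2 difference -0.66, adjusted p = 0.000277) and IKBKB (-0.75, adjusted p = 0.0324) were lower in MONO-MAC-6, and IKBKE, an IKK-related kinase, was higher (1.03, adjusted p = 4.18e-05). The call of IKBKB was lost without MONO-MAC-6 DMSO sample 1 (-0.46, adjusted p = 0.0999). TNFAIP3, the feedback inhibitor A20, was higher too (1.44, adjusted p = 0.000394), as was the adaptor CARD9 (3.61, adjusted p = 1.02e-09), while TNF was lower, at 0.148 ± 0.0364 against 4.54 ± 2.29 TPM (SD, n = 3; -2.20, adjusted p = 0.00119). These genes do not stand for their lists, which had calls both ways. Higher and lower calls were 3 and 6 for the kinases and 5 and 3 for the feedback inhibitors, with PDLIM2 lower (-2.72). For receptors and adaptors they were 8 and 5, with TRADD lower (-1.20). For target genes they were 17 and 5, with IER3 higher (3.04).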

How the data were processed

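The authors deposited TPM per Ensembl transcript in 36 libraries, 1 table per line. Per the submitters' processing notes kallisto, limma and GRCh38 were used; their roles, versions and the annotation are not given in the sources used here. Per the labels' protocols poly(A) RNA with a RIN of at least 8 was sequenced in paired-end reads. Each library summed to 1000000 TPM. Transcripts were matched to GENCODE 29 (78.5%, holding 89.9% to 91.4% of TPM per library) and summed by gene, which gave 35490 genes. The labels list 9 libraries per group and the design text n = 3, so libraries with the same first number were averaged. The labels do not say that samples came from separate cultures, so p-values measure only the spread between these samples.

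Values were taken as log2(TPM + 1). Genes or transcripts that averaged 1 TPM or more in a group were fitted in limma 3.58.1 (R 4.3.3; lmFit, eBayes with trend and robust), two-sided, with Benjamini-Hochberg adjustment over all tested and a threshold of 0.05. Intervals are at 95%. As the unit was TPM, the count model planned for counts was not used. An effect of treatment was fitted per line in 6 samples, and the differences between lines in 12. The method was tested on simulated data with independent noise for each gene and sample. The simulation held no shift shared by the genes of a sample, so it does not bear on samples that stand apart. Sample numbers were not used to pair A9 with DMSO samples in the main fit. Deviations of same-numbered samples correlated at 0.36, -0.077 and 0.68 for MOLM-13 and at -0.027, 0.088 and -0.091 for MONO-MAC-6. The MOLM-13 values were mixed, and A9 sample 2 correlated at 0.63 with DMSO sample 1, so they do not decide pairing there. With a replicate block 0.750% of genes passed for A9 in MOLM-13 instead of 0.121%, and 0.730% instead of 3.36% for MONO-MAC-6. Alternatives were another pseudocount, no filter, other uses of the libraries, a replicate block, median-ratio scaling, removal of the trend on transcript length, protein-coding transcripts alone and leaving out each sample.

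The text names all 10 members, their transcripts of at least 1 TPM (some by name alone), CHUK, IKBKB and IKBKG, the genes of other lists past the threshold (at most 3 highest and 3 lowest per list and comparison, of which a few are given) and the 2 genes most like each member. Members and lists were chosen with earlier results of these data known. Promoters come from RefSeq; Python 3.11.15 with pandas 2.3.3 made the tables, and matplotlib 3.10.9 drew the figures.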

Additional observations from a re-analysis of the deposited data

How the results depend on the processing

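Averaging libraries by second number, which spreads the differences between samples evenly over the averages, gave 5 members past the threshold instead of 0 in MOLM-13, 8 instead of 0 in MONO-MAC-6, 5 instead of 0 for the difference of the effects and, among member transcripts, 5 and 14 instead of 0; of all genes 46.9%, 67.6% and 63.4% passed then, and of all transcripts 21.8% and 45.2%. With each library fitted and the sample as a random block, 2 members (NFKBIE and REL), 1 member (REL) and 1 transcript passed in MONO-MAC-6, in the difference of the effects and in the transcripts of MONO-MAC-6, against 12.4% and 9.27% of all genes and 7.22% of all transcripts. Leaving out 1 sample gave 0 to 3 members in MONO-MAC-6, the 3 without DMSO sample 1, and 0 in MOLM-13. With a replicate block, 0 members passed for A9 in either line and 6 between the lines, where 55.0% of all genes passed. For A9, the adjusted p of NFKBIE was then 0.194 for MOLM-13 and 0.287 for MONO-MAC-6. Between the lines 5 members passed under median-ratio scaling (3 higher in MONO-MAC-6) and 7 with the length trend removed (4 higher), against 62.7% and 67.3% of all genes.

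Signs turned for small values. In MOLM-13 the range with 1 sample left out was -0.21 to 0.062 for RELA, -0.33 to 0.041 for REL, -0.074 to 0.20 for NFKB2, -0.062 to 0.055 for NFKBIB and -0.31 to 0.016 for NFKBIZ, and NFKBIB was -0.021 with protein-coding transcripts alone. In MONO-MAC-6 RELB was -0.037 under scaling and -0.014 without the length trend, and NFKBIB 0.028 with protein-coding transcripts alone. For the difference of the effects, scaling and removal of the length trend gave -0.0069 and -0.056 for NFKB2, -0.16 and -0.039 for NFKBIA, and -0.11 and -0.14 for NFKBIE; NFKBIB was 0.049 with protein-coding transcripts alone. Between the lines REL was -0.054 under scaling and -0.0071 with protein-coding transcripts alone. With 1 sample left out the ranges were -0.0048 to 0.10 for NFKBIA, -0.099 to 0.018 for NFKBIB and -0.18 to 0.0089 for BCL3 in the difference of the effects, and -0.14 to 0.27 for REL and -0.065 to 0.044 for NFKBIA between the lines. The cause of these turns was not tested. TPM give no depth, so members near 1 TPM (NFKB2, and NFKBIZ in MOLM-13) are the least certain.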
